A study of Vigna radiata with 9 samples.

Results

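The genes of flavonoid synthesis in mung bean leaves were followed under cold, with and without uniconazole, a triazole growth retardant. A gene was taken as a member when the annotation deposited with the counts places it in flavonoid biosynthesis, in flavone and flavonol biosynthesis or in isoflavonoid biosynthesis. This rule, which uses no measured value, gave 95 of 26966 genes: 60 in the flavonoid pathway, 12 in the flavone and flavonol pathway and 29 in the isoflavonoid pathway, with some genes in more than 1 of them. The control, CK, received a water spray and stayed in the natural environment. LT received water and was then held at 15 °C for 4 days, beginning 36 h after the spray, and LT+S received uniconazole (50 mg/L) before the same cold. Each group had 3 pots of wild-type plants of the variety 'Lvfeng No.2', and leaves were sampled after treatment at the onset of flowering. Cold was given in a phytotron, so that temperature and place of growth cannot be told apart in any comparison with CK. The sample labels number the compound of the 3 LT+S libraries S3305, S3306 and S3307, whereas the methods name S3307 for the group, and the libraries were taken as 3 replicates of 1 treatment. No library of uniconazole without cold was analysed here.

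Flavonoids are phenolics built from phenylalanine. The general phenylpropanoid enzymes supply coumaroyl-CoA, which chalcone synthase joins to malonyl-CoA units to form a chalcone, and chalcone isomerase closes the ring to a flavanone. From the flavanone, flavanone 3-hydroxylase and flavonol synthase lead to flavonols, which absorb ultraviolet light in leaves, and dihydroflavonol reductase leads to anthocyanins and flavan-3-ols. In legumes a further branch exists: chalcone reductase works with chalcone synthase, isoflavone synthase moves the phenyl ring, and the resulting isoflavones serve as defence compounds and as signals to rhizobia.

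Library totals ran from 19561896 to 21617340 counts, with medians of 20898962 in CK, 20830073 in LT and 21349008 in LT+S. The members took 0.19 to 0.36% of the counts of a library. Values are given below as CPM, the count of a gene scaled to library size by TMM, and they show a gene's level between libraries but not between genes, since they are not divided by gene length. Of the 95 members, 55 had enough counts to be tested. The other 40 comprised 13 without a count in any library and 27 with at most 62 counts over the 9 libraries. Markers of leaf mesophyll were abundant in every library, with a summed level of 60000 to 101000 CPM in CK. The range was 6720 to 15400 CPM for LT and 15900 to 18300 CPM for LT+S, and 19 of the 20 fell in each comparison with CK. Of 27 root nodule markers 9 had no count and 11 were tested, with 5 higher and 2 lower in LT and 4 higher and 1 lower in LT+S. Their summed level was 483 to 702 CPM in CK and 239 to 285 CPM in the cold groups, and the 4 leghemoglobins among them, which define nodules, summed to at most 1.03 CPM in any library.

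Members moved in both directions in the cold. Of the 55 tested members, 14 passed an adjusted p of 0.05 as higher in LT and 10 as lower, against 46.5% of all 19304 tested genes (22.8% higher and 23.7% lower). The share of members called was thus close to that of all genes, and their median log2 fold change was -0.14 against 0.01 over all genes. In LT+S, 11 were higher and 14 were lower than in CK, against 41.7% of all genes (19.7% higher and 21.9% lower). A log2 fold change of 2 or more in size, with an adjusted p below 0.05, was reached by 15 of the 55 tested members in LT and 16 in LT+S. These were larger shares than the 8.32 and 6.84% of all genes. Both comparisons share the CK libraries. No overlap between the libraries of both groups was found for 29 tested members in LT and 35 in LT+S, against 54.8 and 55.6% of all genes. Gene by gene, 8 members were higher in both, 9 were lower in both, 6 were higher and 1 was lower in LT alone by the threshold, 3 were higher and 5 were lower in LT+S alone, and 23 passed in neither. The number higher in LT was 8 without CK 2 and 9 without CK 3. Scaling by library totals alone, which shifted the median of all genes to 0.52 in LT and 0.50 in LT+S, gave 20 higher and 8 lower in LT and 22 higher and 13 lower in LT+S. In that setting 9275 of all genes were higher and 2314 lower in LT, and 8979 and 1997 in LT+S, so that the move upward was one of all genes. In RNA from whole leaves, fewer cells of a type and less RNA per cell cannot be told apart.

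**Figure D1:**
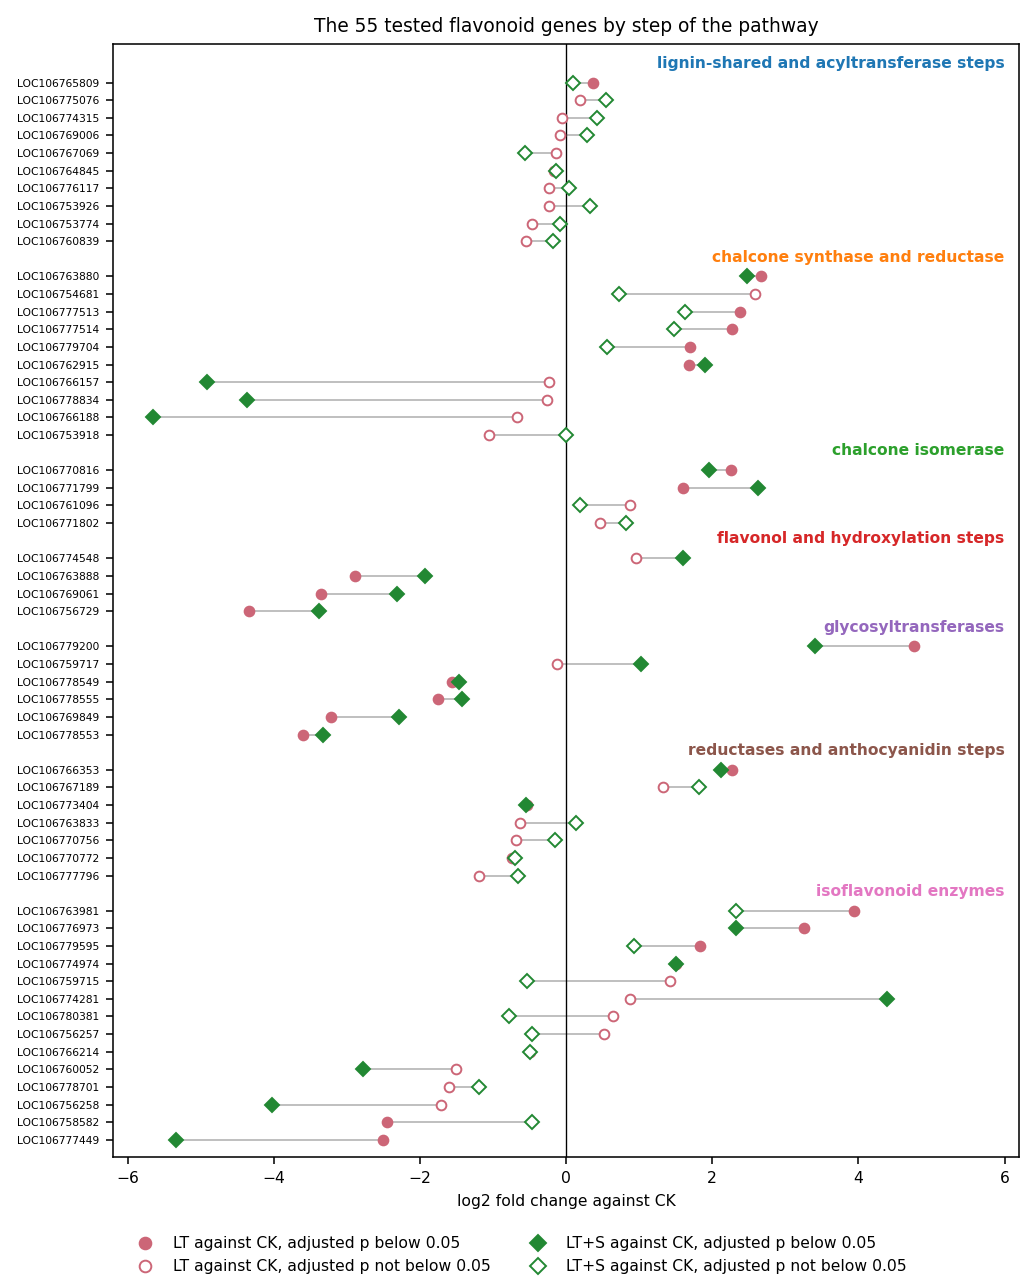
Log2 fold change against CK (horizontal axis) of each of the 55 tested flavonoid genes, for LT (circles) and LT+S (diamonds), grouped by step of the pathway; filled symbols have an adjusted p below 0.05. Of the flavonol genes 3 of 4 and of the glycosyltransferases 4 of 6 sit on the left in both comparisons. Both chalcone reductases and all 4 chalcone isomerases sit on the right, and the lignin-shared and acyltransferase genes close to 0.

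The flavonol steps had the lowest median of all groups. Of 7 members with hydroxylation or flavonol synthesis as their role, 4 were tested, and 3 of these were lower and 0 higher in LT, with a median log2 fold change of -3.13. Summed, they ran from 267 to 554 CPM over the CK libraries, 35.5 to 49.9 CPM over LT and 63.2 to 96.7 CPM over LT+S, so that the 3 groups did not overlap. The mesophyll markers had medians close by, -3.28 in LT and -2.36 in LT+S against -3.13 and -2.13 for the flavonol genes, and their part in the flavonol values was not tested.

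Flavanone 3-hydroxylase (LOC106769061, annotated as naringenin,2-oxoglutarate 3-dioxygenase, chromosome 7, 2309899 to 2313206), which turns naringenin into a dihydroflavonol and so opens the way to flavonols, stood at 56.9, 98.3 and 137 CPM in CK. It was at 9.37, 10.4 and 8.55 CPM in LT and at 15.5, 14.8 and 28.1 CPM in LT+S. All cold libraries lay below all CK libraries, and every LT+S library lay above every LT library. The log2 fold change was -3.36 (SE 0.36, adjusted p = 1.7e-04) in LT and -2.32 (SE 0.34, adjusted p = 9.5e-04) in LT+S.

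Flavonol synthase (LOC106763888, chromosome 6, 26122797 to 26126705), which makes kaempferol and quercetin from dihydroflavonols, stood at 109, 140 and 189 CPM in CK. It was at 19.4, 23.9 and 15.7 CPM in LT and at 38.0, 35.9 and 41.0 CPM in LT+S. The 3 groups were again fully separate in the same order. The log2 fold change was -2.89 (SE 0.23, adjusted p = 5.1e-05) in LT and -1.93 (SE 0.22, adjusted p = 2.8e-04) in LT+S.

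Flavonoid 3'-monooxygenase (LOC106756729, chromosome 3, 11730673 to 11734652), which sets the second hydroxyl of quercetin-type flavonols, had 99.8, 165 and 225 CPM in CK. It had 5.04, 10.8 and 8.31 CPM in LT and 15.3, 8.64 and 22.9 CPM in LT+S. Here LT and LT+S overlapped, since LT+S 2 lay below LT 2. In LT+S the log2 fold change against CK was -3.38 (SE 0.44, adjusted p = 5.4e-04). The remaining tested member of the group, flavonoid 3',5'-hydroxylase (LOC106774548), which makes the delphinidin type of B ring, went the other way, from 1.28, 1.73 and 2.49 CPM in CK to 8.37, 3.71 and 4.56 CPM in LT+S (log2 fold change 1.60, SE 0.49, adjusted p = 0.0279). This call was lost without CK 1, CK 2 or LT+S 1, at an adjusted p of 0.0789, 0.0867 and 0.0995.

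Most tested glycosyltransferases, which put sugars on flavonoids, also fell. Of 9 such members 6 were tested, and 4 were lower and 1 higher in LT, while 4 were lower and 2 higher in LT+S. Of all genes 46.5% were called in LT and 41.7% in LT+S. UGT79A6 (LOC106769849, chromosome 8, 35922973 to 35924616), named for a soybean enzyme that adds rhamnose to flavonol glycosides, had 29.3, 45.2 and 62.6 CPM in CK. It had 5.84, 5.10 and 3.75 CPM in LT and 7.82, 7.79 and 12.5 CPM in LT+S. The order of the groups was that of flavonol synthase, without overlap. In LT+S its log2 fold change against CK was -2.28 (SE 0.31, adjusted p = 6.6e-04).

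The next 4 genes carry the name UGT79B30, after a soybean enzyme that adds glucose to flavonol glycosides, and they split. LOC106778553 had 18.1, 14.0 and 15.8 CPM in CK, 0.714, 2.64 and 0.611 CPM in LT, and 2.05, 1.31 and 1.38 CPM in LT+S. Both cold groups lay far below CK, at log2 fold changes of -3.60 (SE 0.51, adjusted p = 5.9e-04) and -3.33 (SE 0.50, adjusted p = 9.9e-04). The value in LT was -4.57 without LT 2 and -3.25 without LT 3. LOC106778549 and LOC106778555 also fell, by 1.56 and 1.75 on the log2 scale in LT. LOC106779200 did the opposite: it had 2.32, 1.55 and 0.327 CPM in CK, 36.3, 34.8 and 44.6 CPM in LT, and 24.5, 9.82 and 11.1 CPM in LT+S. Its log2 fold change of 4.76 (SE 0.56, adjusted p = 2.5e-04) in LT was the highest of all tested members, and in LT+S it was 3.41 (SE 0.55, adjusted p = 0.00138). How reads that fit more than 1 of these copies were counted is not given in the sources used here, so that the values of single copies are uncertain.

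**Figure D2:**
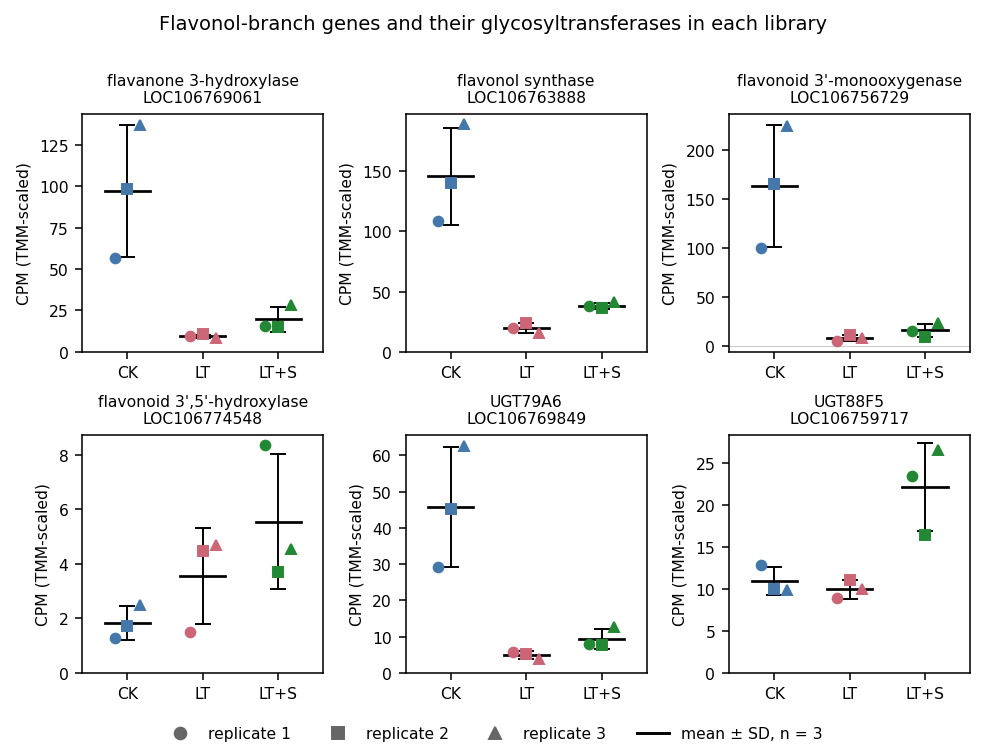
CPM after TMM scaling (vertical axis, from 0) in each library of CK, LT and LT+S for 4 flavonol-branch genes and 2 glycosyltransferases; symbols mark replicates, and bars give the mean ± SD of 3 libraries. Flavonol synthase stands at 109 to 189 CPM for CK, at 15.7 to 23.9 CPM for LT and at 35.9 to 41.0 CPM for LT+S, while UGT88F5 stands at 16.4 to 26.6 CPM in LT+S, above all other libraries.

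Both chalcone reductase genes rose in both cold groups. Chalcone reductase, annotated as 6'-deoxychalcone synthase, removes an oxygen from the forming chalcone and so commits it to the 5-deoxy isoflavonoids of legumes. Its 2 genes lie side by side on chromosome 6 (388533 to 395058). LOC106763880 had 19.7, 15.2 and 15 CPM in CK, 56.2, 79.3 and 183 CPM in LT, and 110, 77.2 and 90.3 CPM in LT+S. No cold library reached down to CK, and LT 3 was the highest of all 9. The log2 fold change was 2.67 (SE 0.41, adjusted p = 8.6e-04) in LT, which was 2.03 without LT 3, and 2.47 (SE 0.40, adjusted p = 0.00149) in LT+S. Its neighbour LOC106762915 rose by 1.68 (SE 0.30, adjusted p = 0.00207) and 1.90 (SE 0.30, adjusted p = 0.00138) on the same scale.

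Of 4 chalcone isomerase genes, 2 rose in both cold groups and 0 fell. They are members of a cluster of 3 on chromosome 8 (45030518 to 45045739). LOC106770816 had 15.9, 12.7 and 13 CPM in CK, 28.8, 45.2 and 125 CPM in LT, and 63.2, 46.4 and 52.4 CPM in LT+S. Again LT 3 stood above the rest: the log2 fold change of 2.25 (SE 0.47, adjusted p = 0.00447) in LT was 1.41 without it, and that in LT+S was 1.96 (SE 0.47, adjusted p = 0.00964). LOC106771799 had 11.8, 10.6 and 11.7 CPM in CK, 32.0, 41.0 and 30.7 CPM in LT, and 50.7, 58.7 and 101 CPM in LT+S. For this gene the 3 groups followed each other without overlap, with log2 fold changes of 1.60 (SE 0.25, adjusted p = 0.00102) and 2.62 (SE 0.26, adjusted p = 1.6e-04). The remaining gene of the cluster, LOC106771802, passed in neither comparison (log2 fold change 0.47 and 0.82), though without CK 3 it passed in both, at 0.95 and 1.30 (adjusted p = 0.0482 and 0.0173). The gene with the highest CPM, LOC106761096, annotated as probable chalcone isomerase 3, stood at 44.6, 44.5 and 57.4 CPM in CK, 56.5, 54.7 and 156 CPM in LT, and 61.4, 53.0 and 52.6 CPM in LT+S. Its log2 fold change of 0.87 (SE 0.37) in LT missed the threshold (adjusted p = 0.0826), and passed it without LT 1 or LT 2, at 0.0414 and 0.0324. Without LT 3 the value was 0.19 (adjusted p = 0.322).

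The chalcone synthases, which carry out the first committed step, did not move as a block. The gene with the highest CPM, LOC106753918, had 211, 356 and 471 CPM in CK, 106, 256 and 139 CPM in LT, and 328, 139 and 569 CPM in LT+S. The groups overlapped widely, and the log2 fold change was -1.05 (95% interval -2.23 to 0.13) in LT and within -1.17 to 1.16 in LT+S. Of 4 genes annotated as chalcone synthase 17, 3 rose in LT. LOC106777513, which adjoins LOC106777514 on chromosome 11 (1048104 to 1062052), had 5.22, 2.92 and 1.37 CPM in CK, 7.27, 8.29 and 34.3 CPM in LT, and 12.6, 7.79 and 9.37 CPM in LT+S. Cold libraries lay above CK throughout. In LT the log2 fold change was 2.38 (SE 0.67, adjusted p = 0.0173) for LOC106777513 and 2.27 (SE 0.63, adjusted p = 0.0164) for LOC106777514, whose 9 libraries had a like pattern, up to 44.1 CPM in LT 3. Without LT 3 these values were 1.29 and 1.27 and both calls stayed. The calls were lost without CK 2 (adjusted p = 0.0623 and 0.0616) and without CK 3 (0.0548 and 0.0544). In LT+S they missed the threshold (log2 fold change 1.63 and 1.48, adjusted p = 0.0760 and 0.0851), and passed it without LT 3, at 0.0128 and 0.0165. LOC106779704 rose by 1.69 in LT (SE 0.53, adjusted p = 0.0280), a call lost without CK 2, CK 3 or LT 3 (adjusted p = 0.0577 to 0.0926). The fourth, LOC106754681, had 2.65 and 3.19 CPM in LT 1 and LT 2 but 80.8 CPM in LT 3, against 2.16 to 7.02 CPM in CK. Its log2 fold change of 2.59 (SE 1.19, adjusted p = 0.104) was -0.71 without LT 3 and passed without LT 1 or LT 2 (adjusted p = 0.0431 and 0.0463).

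Another 3 chalcone synthase genes were nearly silent in LT+S and in LT 2. LOC106778834 had 9.23, 7.02 and 4.97 CPM in CK, 3.74, 0.501 and 13.4 CPM in LT, and 0.555, 0.337 and 0.125 CPM in LT+S. LOC106766157 (chromosome 7, 19713177 to 19715217) had 3.54, 2.80 and 1.77 CPM in CK, 1.55, 0.182 and 5.09 CPM in LT, and 0.0855, 0.0843 and 0.0836 CPM in LT+S. LOC106766188 (chromosome 7, 22706653 to 22708930) had 2.90, 3.09 and 1.24 CPM in CK, 1.13, 0.137 and 3.26 CPM in LT, and 0.0855, 0.0 and 0.0418 CPM in LT+S. In all 3 genes LT 3 was the highest library, LT 2 was low, and LT spread across the CK range, whereas LT+S lay below CK without overlap. The log2 fold changes in LT+S against CK were -4.36 (SE 1.05, adjusted p = 0.00993), -4.91 (SE 1.10, adjusted p = 0.00715) and -5.65 (SE 1.22, adjusted p = 0.00585), and those in LT were -0.26, -0.24 and -0.67, none past the threshold. Without LT 3 the values in LT were -1.73, -1.62 and -1.90 (adjusted p = 0.0918, 0.0958 and 0.0888), and without LT 2 they were 0.27, 0.29 and -0.14. For LOC106766188 the LT+S group held 3 counts in all against 121 in CK. The ratio was 58.1, with a 95% exact counting interval of 19.4 to 285. The fitted value of LOC106766188 was -6.49 without LT+S 1, which left 0 and 1 counts, and -5.12 without LT+S 2. LOC106766157 had 2 counts in each LT+S library. The 3 genes may share reads, being annotated as the same enzyme.

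**Figure D3:**
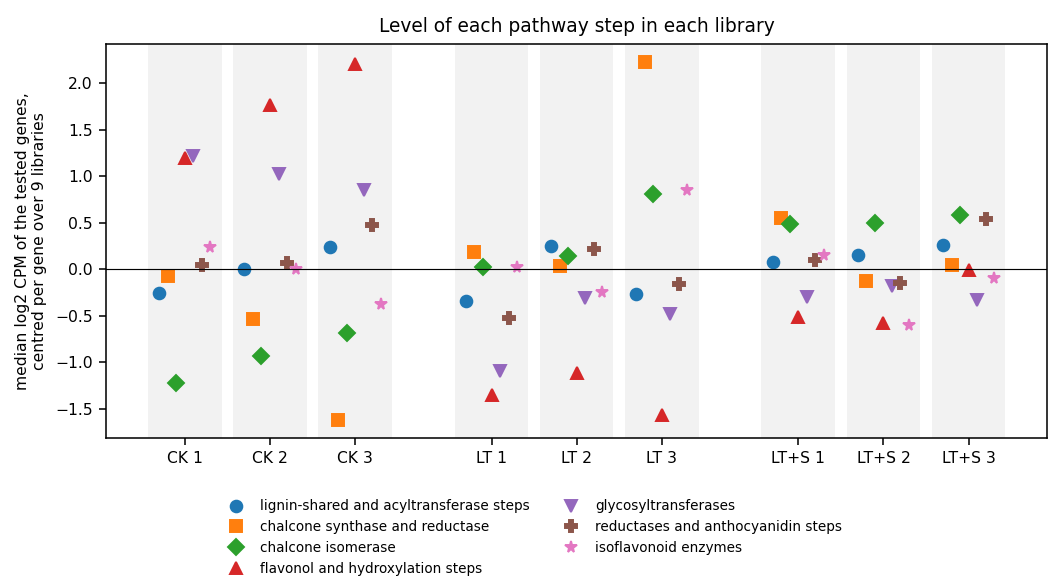
Median over the tested genes of each pathway step of log2 CPM, centred per gene over the 9 libraries (vertical axis), in each library. Chalcone synthase and reductase genes stand at 2.23 in LT 3 against 0.19 and 0.03 in LT 1 and LT 2, and flavonol genes at 1.19 to 2.21 in CK and -1.57 to -1.12 in LT.

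Library LT 3 stood apart in much of the pathway. In 16 of the 55 tested members LT 3 was more than 2 times the higher of the other LT libraries, which was so for 3.89% of all tested genes (751 of 19304). They were 8 of the 10 tested chalcone synthase and reductase genes, 6 of the 14 tested isoflavonoid genes and 2 of the 4 chalcone isomerases. Among them were 0 of the tested flavonol, glycosyltransferase, anthocyanidin-step reductase, and lignin-shared and acyltransferase genes. Phenylalanine ammonia-lyase (LOC106755252), the entry enzyme of all phenylpropanoids and named here after its values were seen, had 113, 261 and 629 CPM in the 3 LT libraries. The list of 20 entry enzymes outside the members summed to 824, 1490 and 1390 CPM there. For that list LT 3 was thus not the highest LT library. LT 3 also had the lowest summed mesophyll markers of all libraries (6720 CPM) and the lowest summed vascular markers of LT (209 CPM against 363 and 568). The part of these tissues in the flavonoid values was not tested. CK libraries differed too: CK 1 was the highest in CK for 8 of the 10 chalcone synthase and reductase genes and the lowest for all 4 tested flavonol genes, whereas CK 3 was the lowest for 9 of the former and the highest for all 4 of the latter. Over all 19304 tested genes CK 1 was the highest in 43.6%, CK 3 in 43.2% and CK 2 in 13.1%. CK 1 was the lowest for 7417 of them and CK 3 for 7953, so that CK 1 and CK 3 were the extremes for most genes. Summed vascular markers were 79.2 CPM in CK 1, 418 in CK 2 and 727 in CK 3, and the mesophyll markers were 60000, 76200 and 101000 CPM. Their part in the CK spread was not tested. Of 44 vascular markers 35 were tested, and 0 were higher and 1 lower in LT, and 0 higher and 2 lower in LT+S. Of 11 epidermis markers 8 were tested, and 5 were higher and 2 lower in each comparison with CK. Their summed level went the other way, at 415 to 544 CPM in CK, 373 to 453 CPM in LT and 332 to 361 CPM in LT+S.

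Isoflavonoid synthesis proper had the most members, 29, of which 14 were tested. In LT 4 were higher and 2 lower, and in LT+S 3 were higher and 3 lower. The share called was 42.9% in each, close to the 46.5 and 41.7% of all genes. 2-hydroxyisoflavanone dehydratase (LOC106776973, chromosome 11, 545205 to 546351), which completes the isoflavone, had 9.93, 7.80 and 5.89 CPM in CK, 24.2, 30.8 and 170 CPM in LT, and 49.5, 33.9 and 35.9 CPM in LT+S. Every cold library exceeded every CK library. The log2 fold change was 3.25 (SE 0.71, adjusted p = 0.00556) in LT and 1.8 without LT 3, where the call stayed. In LT+S it was 2.33 (SE 0.69, adjusted p = 0.0247), a call lost without CK 2, CK 3 or LT+S 1 (adjusted p = 0.0768, 0.0768 and 0.0645).

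Isoflavone synthase, annotated as 2-hydroxyisoflavanone synthase, is the cytochrome P450 that moves the phenyl ring. Its gene LOC106763981 (chromosome 6, 13679651 to 13681594) had 0.755, 0.714 and 0.524 CPM in CK, 1.64, 1.55 and 27.8 CPM in LT, and 3.33, 4.38 and 2.38 CPM in LT+S. The rise was small in LT 1 and LT 2 and large in LT 3. The log2 fold change in LT was 3.94 (SE 1.14, adjusted p = 0.0201), and 1.25 without LT 3 (adjusted p = 0.0229). That call was lost without any of the CK libraries (adjusted p = 0.0521 to 0.0651). In LT+S the log2 fold change of 2.33 missed the threshold (SE 1.13, adjusted p = 0.129) but passed it without LT 3 (8.4e-04), which takes no part in the contrast but in the estimate of spread. A further isoflavone synthase, LOC106780381, had 58.9, 33.3 and 18.8 CPM in CK, 34.1, 30.3 and 109 CPM in LT, and 24.8, 17 and 23.0 CPM in LT+S, and passed in neither comparison (log2 fold change 0.64 and -0.78). Its value in LT was -0.20 without LT 3 and 1.15 without CK 1.

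**Figure D4:**
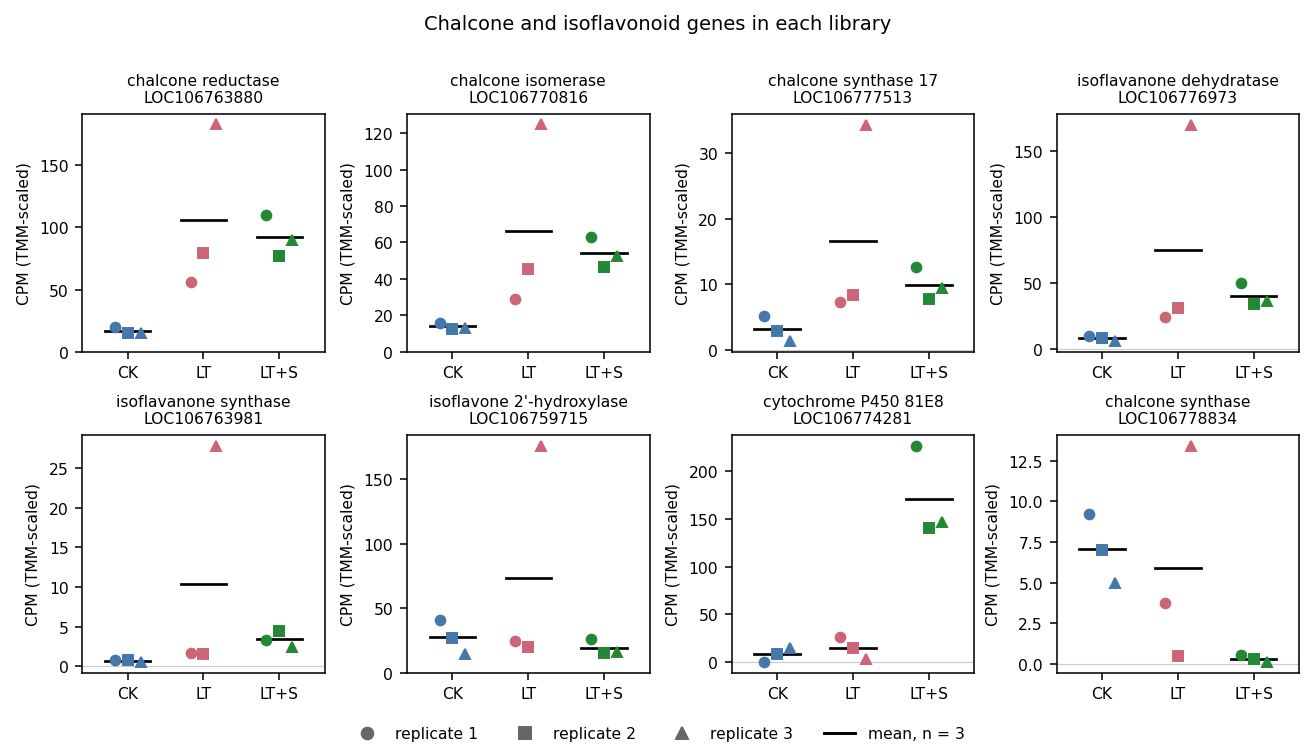
CPM after TMM scaling (vertical axis, from 0) in each library of CK, LT and LT+S for 8 chalcone and isoflavonoid genes; symbols mark replicates and horizontal bars the mean of 3 libraries. LT 3 (triangle) lies above the other LT libraries in every panel but that of cytochrome P450 81E8 (LOC106774281), which is highest in the 3 LT+S libraries.

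Enzymes that decorate isoflavones moved both ways. LOC106774281 (chromosome 9, 13934365 to 13937753), annotated as cytochrome P450 81E8 and thus of the P450 family that holds the isoflavone hydroxylases, had 0.348, 8.87 and 15.4 CPM in CK, 26.6, 14.7 and 3.38 CPM in LT, and 226, 140 and 147 CPM in LT+S. Every LT+S library was above every library of the other groups. Its log2 fold change in LT+S was 4.39 (SE 1.01, adjusted p = 0.00807), 3.82 without CK 1 and 5.22 without CK 3. LOC106774974, of the same name, ran from 10.3 to 11.8 CPM over CK, from 26.9 to 36.3 CPM over LT and from 25.6 to 37.3 CPM over LT+S, so that it rose in both by the same value (log2 fold change 1.5, SE 0.17 in each, adjusted p = 2.0e-04 and 2.8e-04). Another, LOC106777449, had 4.88, 4.17 and 1.90 CPM in CK, 0.336, 0.0911 and 1.47 CPM in LT, and 0.0, 0.211 and 0.0418 CPM in LT+S. Copies with the same annotation thus differed in direction. LOC106777449 fell by 5.34 on the log2 scale in LT+S (SE 1.08, adjusted p = 0.00439), by 4.79 without LT+S 1 and by 7.08 without LT+S 2. The value of 7.08 rests on LT+S libraries at 0.0 and 0.0418 CPM, and thus on very few counts. In LT the log2 fold change of LOC106777449 was -2.51 (SE 0.85, adjusted p = 0.0383), or -2.01 without LT 2 and -4.04 without LT 3. The LT call was lost without CK 1, CK 2, LT 1, LT 2 or LT+S 3 (adjusted p = 0.0553 to 0.110).

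Isoflavone 7-O-methyltransferase LOC106758582, 1 of 4 such genes in a cluster on chromosome 4 (18066284 to 18116421), had 1.04, 1.90 and 2.95 CPM in CK, 0.630, 0.182 and 0.244 CPM in LT, and 1.58, 1.52 and 1.17 CPM in LT+S. It was low in LT and within the CK range in LT+S. In LT it fell by 2.45 on the log2 scale (SE 0.53, adjusted p = 0.00527), by 2.04 without CK 3 and by 3.15 without LT 1. Isoflavone 2'-hydroxylase, which acts ahead of the pterocarpan phytoalexins, has 4 genes clustered on chromosome 5 (1438455 to 1475850). Of these LOC106759715 had 40.7, 26.9 and 14.9 CPM in CK, 24.9, 19.8 and 176 CPM in LT, and 25.8, 15.4 and 16.1 CPM in LT+S, and passed in neither comparison. Its log2 fold change of 1.42 in LT was -0.30 without LT 3. LOC106760052 had 2.84, 1.25 and 0.327 CPM in CK, 0.504, 0.137 and 0.896 CPM in LT, and 0.299, 0.0843 and 0.251 CPM in LT+S. Its lower level in LT+S (log2 fold change -2.78, SE 0.88, adjusted p = 0.0316) no longer passed without CK 1, CK 2 or any LT+S library (adjusted p = 0.0627 to 0.118).

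The reductases late in the branch also split. Vestitone reductase (LOC106779595), which in alfalfa acts just before the phytoalexin medicarpin, had 12.5, 9.22 and 5.04 CPM in CK, 16.8, 19.5 and 59.3 CPM in LT, and 22.9, 14.6 and 13.8 CPM in LT+S. All cold libraries were above CK. The log2 fold change in LT was 1.83 (SE 0.52, adjusted p = 0.0184), and 1.02 without LT 3. Without CK 2 or CK 3 the call was lost (adjusted p = 0.0577 and 0.0596). In LT+S the value was 0.93 (adjusted p = 0.177), which passed without LT 3 (0.0461). The isoflavone reductase homolog PCBER LOC106756258, whose name stands for phenylcoumaran benzylic ether reductase, an enzyme of lignans, had 17.4, 11.3 and 5.89 CPM in CK, 4.58, 0.911 and 5.05 CPM in LT, and 0.385, 1.22 and 0.502 CPM in LT+S. Its log2 fold change was -4.02 (SE 0.73, adjusted p = 0.00245) in LT+S, or -3.60 without CK 1 and -4.68 without LT+S 2. In LT it was -1.71 and missed the threshold (SE 0.63, adjusted p = 0.0523), but not without CK 3 (-2.02, adjusted p = 0.0380). The adjacent PCBER gene on chromosome 2, LOC106756257, had log2 fold changes of 0.52 and -0.46 and passed in neither.

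The anthocyanin and flavan-3-ol steps had low counts and few calls. Of 11 such members 7 were tested, with 1 higher and 1 lower in each comparison with CK, and their summed level was 8.57 to 19.4 CPM over all libraries. The share called was 28.6% in each, against 46.5 and 41.7% of all genes. Anthocyanidin reductase, which makes epicatechin, had its highest level in LOC106773404, at 6.85, 6.37 and 5.30 CPM in CK, 4.79, 4.14 and 3.79 CPM in LT, and 4.06, 4.30 and 4.27 CPM in LT+S. The groups of cold libraries lay just below CK, with log2 fold changes of -0.54 (SE 0.17, adjusted p = 0.0308) and -0.55 (SE 0.17, adjusted p = 0.0315). With library totals alone these were -0.04 and -0.06 and neither passed. The LT call was also lost without CK 1, CK 2, LT 2 or LT 3 (adjusted p = 0.0775 to 0.0937), and the LT+S call without CK 1, CK 2 or any LT+S library (0.0761 to 0.0963). LOC106766353, another anthocyanidin reductase, had 0.174, 0.119 and 0.0654 CPM in CK, 0.630, 0.455 and 0.733 CPM in LT, and 0.342, 0.632 and 0.669 CPM in LT+S. It rose in both (log2 fold change 2.27, SE 0.52, adjusted p = 0.00661 and 2.12, SE 0.52, adjusted p = 0.0107), though the CK libraries held only 3, 2 and 1 counts. The 3 tested dihydroflavonol reductases, which open the anthocyanin branch, passed in neither comparison, with log2 fold changes of -0.74 to -0.63 in LT. Leucoanthocyanidin dioxygenase (LOC106777796), the anthocyanidin synthase, had a log2 fold change of -1.19 in LT (SE 0.48, adjusted p = 0.0722), and passed without CK 1 (-1.43, adjusted p = 0.0460) or LT 2 (-1.64, adjusted p = 0.0324).

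The group of lignin-shared and acyltransferase genes had only 1 call. It also had the highest summed CPM of all groups, a value that takes no account of gene length. Of its 24 members, 8 were spermidine hydroxycinnamoyl transferases by name, 3 vinorine synthases and 2 omega-hydroxypalmitate feruloyl transferases. Of the 24, 10 were tested, and 1 was higher and 0 lower in LT and 0 were called in LT+S. Of all genes 46.5% were called in LT and 41.7% in LT+S. Spermidine hydroxycinnamoyl transferase LOC106776117, which attaches hydroxycinnamic acids to the polyamine spermidine, had 720, 645 and 573 CPM in CK, 504, 732 and 419 CPM in LT, and 743, 667 and 577 CPM in LT+S. The groups overlapped, and the 95% intervals of the log2 fold change were -0.72 to 0.26 (LT) and -0.45 to 0.53 (LT+S). Cinnamate 4-hydroxylase (LOC106764845), the P450 at the head of all these pathways, had intervals of -0.80 to 0.49 and -0.78 to 0.51. Shikimate O-hydroxycinnamoyltransferase (LOC106774315), which leads toward lignin, had a log2 fold change of 0.42 in LT+S that passed without LT 2 (adjusted p = 0.0322) but not with all libraries (0.0771). The 1 call, the caffeoyl-CoA O-methyltransferase LOC106765809, had a log2 fold change of 0.37 (SE 0.13, adjusted p = 0.0371) in LT. It was lost without CK 2, CK 3, any LT library or LT+S 3 (adjusted p = 0.0564 to 0.0991).

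Uniconazole was compared within the cold by setting LT+S against LT. At an adjusted p below 0.05, edgeR called 0 of the 55 members, against 0.0155% of all tested genes (3 of 19304). At an unadjusted p below 0.05 it gave 17 of the 55 members, 8 higher and 9 lower in LT+S. This was a larger share than the 7.07% of all genes (3.73% higher and 3.34% lower). The libraries of LT+S and LT did not overlap for 15 of the 55 members, also a larger share than the 14.1% of all genes. DESeq2 called 7 members, 3 higher and 4 lower, with 9 libraries, and 10, 6 higher and 4 lower, with the 6 cold libraries. Of all 19304 genes it called 232 and 344 in these settings. The members called by DESeq2 with 9 libraries were chalcone isomerase LOC106771799, flavonol synthase LOC106763888 and UGT88F5 (LOC106759717) above LT, and the 3 chalcone synthases LOC106778834, LOC106766157 and LOC106766188 and PCBER LOC106756258 below it.

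The smallest p belonged to UGT88F5 (LOC106759717, chromosome 5, 33485282 to 33490998), a glycosyltransferase placed in the flavonoid pathway. It had 12.9, 10 and 9.88 CPM in CK, 8.86, 11.1 and 9.94 CPM in LT, and 23.5, 16.4 and 26.6 CPM in LT+S. CK and LT overlapped, and LT+S lay above both. Its log2 fold change against LT was 1.15 (SE 0.20, unadjusted p = 2.7e-04, adjusted p = 0.121), and against CK 1.02 (SE 0.20, adjusted p = 0.00374).

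The 4 tested flavonol genes all had positive values in LT+S against LT, with a median log2 fold change of 0.96. Other groups went the other way: 11 of the 14 tested isoflavonoid genes had negative values, with a median of -0.95. So had 8 of the 10 tested chalcone synthase and reductase genes, with a median of -0.96. Flavonol synthase had 0.96 (SE 0.21, 95% interval 0.47 to 1.45, unadjusted p = 0.00156), flavanone 3-hydroxylase 1.04 (SE 0.34, interval 0.27 to 1.81, unadjusted p = 0.0134) and UGT79A6, of the glycosyltransferases, 0.94 (SE 0.31, unadjusted p = 0.0150). Their adjusted p in edgeR were 0.289, 0.509 and 0.520, so that none passed over all genes in that test. DESeq2 gave flavonol synthase an adjusted p of 0.0106 with 9 libraries and 3.0e-04 with the 6 cold libraries. For flavanone 3-hydroxylase these were 0.158 and 0.0356, and for UGT79A6 0.213 and 0.0861. All LT+S libraries of these genes were still below all CK libraries. The mesophyll markers had a median log2 fold change of 0.69 in the same comparison with 0 of 20 called, and their part in the flavonol values was not tested.

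Chalcone isomerase LOC106771799 had a log2 fold change of 1.02 (SE 0.24, unadjusted p = 0.00224, adjusted p = 0.301) in LT+S against LT, and LOC106774281, the P450 81E8, 3.52 (SE 0.96, unadjusted p = 0.00515, adjusted p = 0.394). DESeq2 gave LOC106774281 an adjusted p of 2.9e-06 with the 6 cold libraries and 0.107 with 9 libraries. In both genes the groups did not overlap. The 3 chalcone synthases had -4.10, -4.66 and -4.98 (LOC106778834, LOC106766157 and LOC106766188, SE 1.04, 1.10 and 1.22, adjusted p = 0.360, 0.301 and 0.328). These became -2.63, -3.29 and -3.75 without LT 3, the library in which they were highest. For LOC106766188 the counts were 110 in LT and 3 in LT+S, a ratio of 37.1 with a 95% exact counting interval of 12.4 to 182.

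**Figure D5:**
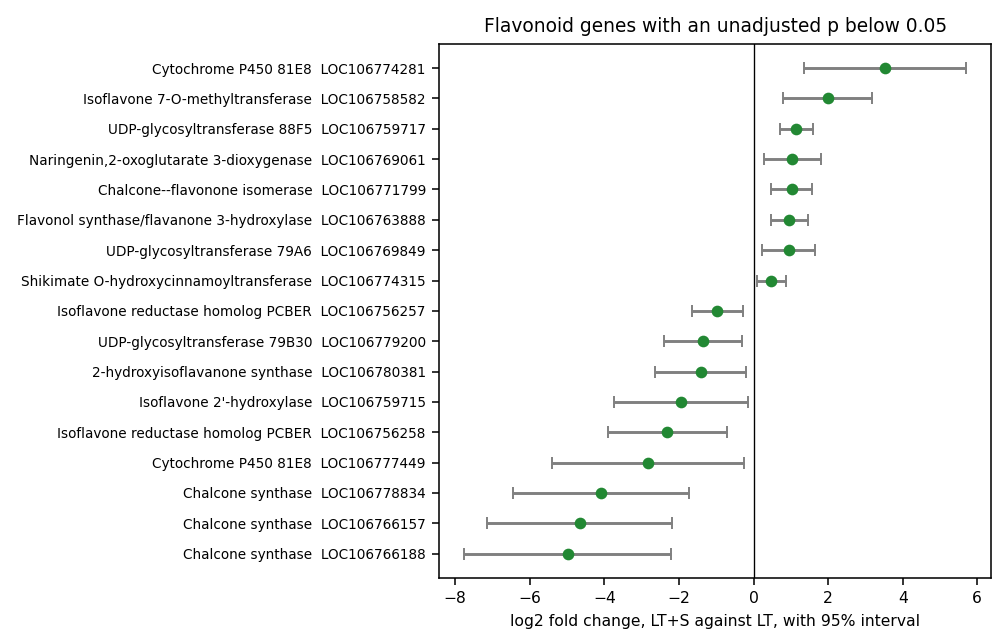
Log2 fold change of LT+S against LT with its 95% interval (horizontal axis) for the 17 flavonoid genes with an unadjusted p below 0.05. 8 lie above 0, among them flavonol synthase at 0.96 and the P450 81E8 LOC106774281 at 3.52, and 9 lie below, led by 3 chalcone synthases. None passed in edgeR after adjustment over all genes.

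Genes around the pathway were described from lists matched to product names. Of 20 entry enzymes (phenylalanine ammonia-lyase and 4-coumarate-CoA ligase genes) 15 were tested, with 2 higher and 4 lower in LT and 1 higher and 3 lower in LT+S. The share called was 40% in LT and 26.7% in LT+S, against 46.5 and 41.7% of all genes. The 4-coumarate-CoA ligase LOC106767325, which activates coumaric acid for chalcone synthase and for lignin, had 7.02, 9.58 and 11.7 CPM in CK, 0.126, 0.455 and 0.122 CPM in LT, and 1.32, 0.632 and 0.795 CPM in LT+S. It thus followed the order of the flavonol genes, with log2 fold changes of -5.32 (SE 0.51) in LT and -3.35 (SE 0.44) in LT+S. The ligase-like gene LOC106769563 had -1.17 (SE 0.20) in LT. Of 51 lignin enzymes 37 were tested, with 4 higher and 4 lower in LT and 6 higher and 3 lower in LT+S. Their share called, 21.6% in LT and 24.3% in LT+S, was below that of all genes. Caffeic acid O-methyltransferase LOC106760833 rose by 0.92 (SE 0.15) and the cinnamoyl-CoA reductase-like gene LOC106776393 by 0.93 (SE 0.11) in LT.

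Of 62 further genes whose product name refers to flavonoids or isoflavonoids but which the pathway annotation leaves out, 40 were tested, with 9 higher and 11 lower in LT and 10 of each in LT+S. The share called was 50% in each, against 46.5 and 41.7% of all genes. An isoflavone reductase-like gene, LOC106762582, had 1880, 1580 and 1500 CPM in CK, 480, 528 and 561 CPM in LT, and 433, 484 and 484 CPM in LT+S, and its log2 fold change was -1.66 (SE 0.15) in LT and -1.82 (SE 0.15) in LT+S. LOC106777165, a gene annotated as 2-hydroxyisoflavanone dehydratase, had -2.60 (SE 0.30) in LT, against 3.25 for the pathway member of that name, LOC106776973. Of 24 genes whose names matched a list of pathway regulators 15 were tested, with 3 higher and 7 lower in LT and 2 higher and 6 lower in LT+S. Their share called was 66.7% in LT and 53.3% in LT+S, above that of all genes. The match was by name only, and whether each gene regulates the pathway was not assessed. SPA1-RELATED 3 (LOC106777919), which in Arabidopsis works with COP1 to repress light responses, had 92.3, 72.6 and 53.3 CPM in CK, 4.54, 4.87 and 3.26 CPM in LT, and 4.74, 4.55 and 5.52 CPM in LT+S. Both cold groups were low, at log2 fold changes of -4.11 (SE 0.24) and -3.88 (SE 0.24). TRANSPARENT TESTA 9 (LOC106761988), named for an Arabidopsis seed-coat mutant, had 0.79 (SE 0.10) in LT. The anthocyanin pathway of the annotation held 1 gene, LOC106766336, which had no count in any library.

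Many members have neighbours of the same kind in the genome. Of 74 members on numbered chromosomes 36 lay within 100 kb of another, in 14 clusters, and members on unplaced scaffolds were not assessed. Both chalcone reductases of the cluster on chromosome 6 and both chalcone synthase 17 genes of that on chromosome 11 rose in LT. In the PCBER pair on chromosome 2, only LOC106756258 passed in LT+S, and in the cluster of 3 chalcone isomerases 2 passed in each cold group. Members without enough counts for a test included a spermidine hydroxycinnamoyl transferase next to LOC106776117 on chromosome 10, LOC106775585, with 1, 4 and 6 counts in CK, 1, 2 and 1 in LT, and 7, 17 and 23 in LT+S, the highest total, 62, of those left out. It was named after its values were seen.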

How the data were processed

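The authors deposited raw counts per gene, from reads that had been trimmed (Trimmomatic) and mapped by hisat2 v2.1.0 on the assembly Vradiata_ver6. For quantification the methods name htseq-count and, in another section, bowtie2 with eXpress, and the submitters' processing notes name CASAVA 1.8 and Cufflinks, so that the counting tool of these whole-number values is uncertain. The strand setting is not given in the sources used here. Positions came from the RefSeq table of that assembly, in which all 95 members were found.

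Counts were filtered with filterByExpr and scaled by TMM, and the 9 libraries were fitted by group with the quasi-likelihood test of edgeR 4.0.16 (R 4.3.3). Benjamini-Hochberg adjustment covered 19304 genes, and the threshold was 0.05. Each pot was a replicate. Alternatives were DESeq2 1.42.0, its size factors, library totals alone (added after the TMM factors, 0.781 to 0.804 in CK and 1.05 to 1.17 in the cold groups, were seen), other filters, the 6 libraries of a comparison, a replicate block and each library left out. Members and lists were chosen with earlier results of these data known. Genes named were members past a log2 fold change of 2 in size with an adjusted p below 0.05, the highest-mean member of each role, the 5 smallest p in LT+S against LT, and 2 per further list. Other members are named to complete a group, after their values were seen. The fit was also run on simulated counts, with an outcome not reported here. Counting intervals cover counting error only. Figures were drawn with matplotlib 3.10.9.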

Additional observations from a re-analysis of the deposited data

How the results depend on the processing

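The number of flavonoid genes higher in LT than in CK was 14, and 8 to 16 when single libraries were left out. The number higher in LT+S than in CK was 11, and 22 with library totals alone, a setting that also raised the share of higher among called members from 58.3 to 71.4% in LT and from 44.0 to 62.9% in LT+S (all genes: 49.0 to 80.0% and 47.4 to 81.8%). In LT+S against LT, edgeR called 3 of all genes and 0 members. DESeq2 called 232 and 344 genes with 9 and 6 libraries, of which 3 members were higher and 4 lower, and 6 higher and 4 lower. With edgeR the count of all genes was 0 with 6 libraries, 6 with the replicate block, and 0 to 7 when single libraries were left out. No named member changed direction while called. The numbers did not pair the libraries: deviations of same-numbered libraries correlated at -0.296 to 0.267, over 0.1 in 2 of 9 pairs. With the replicate block, 11 members were higher and 8 lower in LT, and 10 and 13 in LT+S. It ended the LT calls of LOC106763981 (adjusted p = 0.0792), LOC106779595 (0.0502), LOC106777449 (0.0755), LOC106765809 (0.0564) and LOC106773404 (0.0551), and the LT+S calls of LOC106774548 (0.0510) and LOC106773404 (0.0593). The causes of these differences were not tested. Depth was even between libraries, but genes below 1 CPM, such as LOC106766353, rest on few counts and were not tested at a mean of at least 1 CPM.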
